A study of Mus musculus with 4 samples.

Results

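The expression of 10 genes that encode telomerase, its accessory factor Dkc1, the telomere-capping complex shelterin and the telomere helicase Rtel1 was examined in mouse hair follicle stem cells (HFSCs) carried through long-term culture. The genes were Tert, Dkc1, Terf1, Terf2, Terf2ip, Tinf2, Acd, Pot1a, Pot1b and Rtel1. They were taken by symbol, not by a cut on their values, though earlier results of these data were known. All 10 were among the 24346 gene symbols of each library. HFSCs were CD49f+CD34+ cells sorted from the dorsal skin epithelium of C3H/HeN mice 4 weeks of age and cultured in the serum-free medium M-CnT. Polyadenylated RNA was sequenced after 10 passages (10p-HFSCs, 2 libraries) and after 48 passages (48p-HFSCs, 2 libraries), so that both groups share strain, sort and medium and differ in passage number. Whether the 2 libraries of a group came from separate cultures is not stated, and p-values then measure only the spread between these libraries, which may be technical.

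Telomeres are the repeats that protect chromosome ends and that shorten when cells divide without telomerase. Telomerase joins the reverse transcriptase Tert to the template RNA Terc, and the pseudouridine synthase dyskerin, encoded by Dkc1, binds and stabilises that RNA. Shelterin sits on the repeats: Terf1 and Terf2 bind the double-stranded part, Pot1a and Pot1b the single-stranded overhang, Tinf2 and Acd bridge them, and Terf2ip (Rap1) rides on Terf2. Mice carry 2 Pot1 genes, whereas humans carry 1. Hair follicle stem cells are a classical setting in which Tert and telomere length have been studied in mouse skin.

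Values are FPKM, the fragments of a gene scaled by transcript length and by library size, and can be compared between genes. Differences are 48p-HFSCs minus 10p-HFSCs on the log2(FPKM + 1) scale, which understates the change of genes at low FPKM. The 11018 genes that reached an FPKM of 1 in 2 or more libraries were tested with limma. Calls needed an adjusted p-value under 0.05 and a log2 difference of 1 or more in size. An exact permutation test on 2 against 2 libraries has 0.333 as its smallest two-sided p-value, so calls rest on limma's pooling of variance over genes.

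The libraries differed in scale. From the FPKM steps of genes with few fragments, the divisor behind the scaling was estimated at 9.52 M to 20.3 M fragments. It was lowest in replicate 2 of 48p-HFSCs, and was not checked against the number of reads sequenced. FPKM summed to 581516 to 719012 in 3 libraries and to 1414953 in that replicate. A 2-fold or larger gap between replicates was seen for 151 genes at 10 passages and for 1871 at 48 passages. Across genes, which are not independent replicates, the difference of replicate 2 minus replicate 1 went down with transcript length, with a Spearman rho of -0.49 at 10 passages and -0.37 at 48 passages. The longest transcripts of the 10 genes span 2667 to 4448 bases, those of Rtel1 (4448) and Tert (4313) being the longest, and the part of length in their values was not tested beyond the correction for length and GC content. Of 9 keratinocyte and HFSC markers, 7 were at an FPKM of 8.31 or more in every library, among them Krt5, Krt14 and Itga6. By contrast, Cd34 did not exceed 0.234 and Lhx2 did not exceed 0.024. By other assays, the paper reports CD34 protein on most cells at both passages. By qRT-PCR it reports maintained CD34 expression, and increased Lhx2 and Sox9 in 48p-HFSCs. The sum of the 9 markers, mostly Krt5 and Krt14, was 3561 and 2926 in 10p-HFSCs against 12827 and 7827 in 48p-HFSCs. Both 48p-HFSC libraries were above both 10p-HFSC libraries for Krt5, Krt14, Itga6 and Itgb4. Sox9 went the other way, at 45.6 and 44.2 against 20.2 and 8.31. Krt15 (136.1 and 82.6 against 424.8 and 18.8) and Trp63 overlapped between groups. The summed FPKM of 5 leukocyte markers was 0.641 and 0.694 in 10p-HFSC replicates and 64.3 and 104.2 in 48p-HFSC replicates, nearly all of it Cd74, with Cd3e and Tyrobp listed at 0. The sum of 6 fibroblast markers was 68.9 and 60.2 in 10p-HFSCs against 0.151 and 0.242 in 48p-HFSCs, nearly all of the former Col1a2, with Dcn and Thy1 listed at 0. Melanocyte markers summed to 1.10 and 1.24 against 3.39 and 11.7 with Dct at 0, endothelial markers to at most 2.38, and germ cell markers to at most 1.54. These marker levels moved with passage number and so with every difference below, and their part in the results was not tested. In bulk RNA, a change in the share of expressing cells and a change in RNA per cell cannot be told apart.

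The bases before the transcription start are shown for the 3 genes that were called and for Tert, to set the genes that moved beside their upstream sequence. Each sequence holds the 250 bases upstream of the start from RefSeq (GRCm38.p6), 5′ to 3′ on the gene's strand, at chr13:73626661-73626910 (+) for Tert, chrX:75095604-75095853 (+) for Dkc1, chr8:107096546-107096795 (-) for Terf2 and chr14:55681818-55682067 (-) for Tinf2. Capitals mark the GC box (GGGCGG), the CCAAT box (CCAAT) or the cyclic AMP response element (TGACGTCA) on either strand.
Tert: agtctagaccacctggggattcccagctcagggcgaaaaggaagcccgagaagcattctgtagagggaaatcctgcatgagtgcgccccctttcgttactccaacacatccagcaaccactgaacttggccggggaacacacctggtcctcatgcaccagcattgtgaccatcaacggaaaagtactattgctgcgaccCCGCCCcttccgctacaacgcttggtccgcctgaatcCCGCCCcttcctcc
Dkc1: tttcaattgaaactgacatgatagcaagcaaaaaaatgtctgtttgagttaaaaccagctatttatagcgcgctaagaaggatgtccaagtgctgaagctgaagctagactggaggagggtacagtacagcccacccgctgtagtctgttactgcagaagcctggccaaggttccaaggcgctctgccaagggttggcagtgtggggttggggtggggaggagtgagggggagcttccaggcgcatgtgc
Terf2: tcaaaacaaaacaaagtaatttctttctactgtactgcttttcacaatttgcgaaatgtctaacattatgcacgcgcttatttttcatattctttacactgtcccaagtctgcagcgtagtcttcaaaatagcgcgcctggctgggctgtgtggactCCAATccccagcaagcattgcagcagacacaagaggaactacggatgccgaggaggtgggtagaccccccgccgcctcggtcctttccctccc
Tinf2: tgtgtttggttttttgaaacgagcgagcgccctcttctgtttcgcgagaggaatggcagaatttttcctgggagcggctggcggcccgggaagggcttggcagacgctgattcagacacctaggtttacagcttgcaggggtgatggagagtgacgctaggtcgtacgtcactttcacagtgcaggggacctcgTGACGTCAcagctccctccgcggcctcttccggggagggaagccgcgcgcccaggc
Promoters were matched for 9 of the 10 genes, all but Terf1. A GC box was found before Tert, Pot1a, Pot1b and Rtel1, and in 32.9% of 27025 promoters of the same length, or 60.8% of the 8457 that belong to tested genes. The Tert window held 2 GC boxes, at 51 to 46 and at 14 to 9 bases before the start. A CCAAT box was found before Terf2, Acd and Pot1b and in 34.5% of promoters (37.8% for tested genes). The response element was found before Tinf2, at 56 to 49 bases from the start, and in 1.62% of promoters (2.96% for tested genes). The E-box CACGTG, the site that Myc and Max bind, was found in none of the 9 windows and in 6.05% of promoters (8.8% for tested genes), which says only that these letters are not within these windows.

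Of the 9 genes that could be tested, Tinf2 was called higher and Dkc1 and Terf2 were called lower in 48p-HFSCs. Among all 11018 genes, 10.8% were called higher and 9.15% lower, and with 9 genes the counts of 1 higher and 2 lower are close to what these shares give. Both 48p-HFSC libraries lay below both 10p-HFSC libraries for Terf2, Terf2ip, Acd and Dkc1, against 34.3% of all genes, and above them for Pot1a and Tinf2, against 31.7% of all genes. The libraries of the groups overlapped for Terf1, Pot1b and Rtel1. The median log2 difference over the 9 genes was -0.44, and over all genes tested -0.03.

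**Figure D1:**
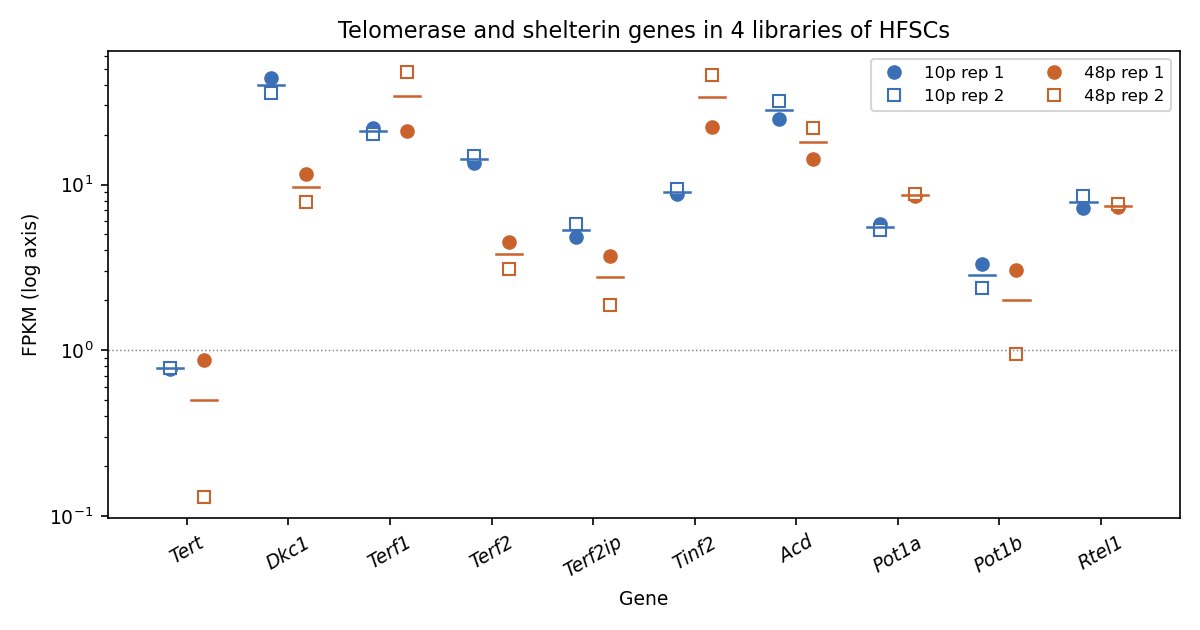
FPKM (log axis) of the 10 genes in each library, with 10p-HFSCs in blue and 48p-HFSCs in orange, replicate 1 as filled circles, replicate 2 as open squares, horizontal bars at the group means and a dotted line at an FPKM of 1. Dkc1 and Terf2 lie lower and Tinf2 lies higher in both 48p-HFSC libraries, and the 48p-HFSC replicates of Tert lie far apart, at 0.878 and 0.13.

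Tert, the catalytic subunit of telomerase (chr13:73626911-73649843, + strand), was the lowest of the 10 genes in both groups. Its FPKM was 0.774 and 0.784 at 10 passages and 0.878 and 0.13 at 48 passages. Replicate 1 of 48p-HFSCs was thus above both 10p-HFSC libraries and replicate 2 was far below all others. These values correspond to an estimated 65 and 47 fragments in 10p-HFSC replicates and 61 and 5 in 48p-HFSC replicates, counted over the longest transcript. Tert did not pass the filter on low FPKM. Fitted without that filter, its log2 difference was -0.29 (95% interval -1.02 to 0.44, limma adjusted p = 0.52), an interval that reaches from the complete loss of so low a value to a rise. It was 0.08 without replicate 2 of 48p-HFSCs (limma adjusted p = 0.35) and -0.65 without replicate 1 (limma adjusted p = 0.040), so that the value depends on which 48p-HFSC library is kept.

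Terc, the template RNA of telomerase, was at an FPKM of 1.0 and 0.70 in 10p-HFSCs and listed at 0 in both 48p-HFSC libraries. The libraries were made from polyadenylated RNA, mature Terc is not polyadenylated, and the 10p-HFSC values correspond to an estimated 5 and 2 fragments, so these values do not measure the amount of Terc.

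Dkc1 (chrX:75095854-75109777, + strand) had the highest FPKM of the 10 genes in 10p-HFSCs and the largest difference of those tested. Its FPKM was 43.9 and 35.4 in 10p-HFSCs against 11.5 and 7.89 in 48p-HFSCs. Both 48p-HFSC libraries were well below both 10p-HFSC libraries. The means were 39.7 ± 6.0 and 9.71 ± 2.57 (SD, n = 2 each), 4.09-fold lower in 48p-HFSCs, with a log2 difference of -1.94 (standard error 0.29, 95% interval -2.66 to -1.22, limma adjusted p = 0.0088). Dkc1 fell from the first to the fourth place among the 10 genes. The median log2 difference of 338 genes of the X chromosome was 0.11. Mpp1, on the opposite strand, shares 1.09% of the exonic bases of Dkc1 and was itself called lower, with an FPKM of 83.9 and 69.4 at 10 passages and 37.1 and 31.8 at 48 passages. The call was lost when either 10p-HFSC library was left out (limma adjusted p = 0.21 without replicate 1 and 0.15 without replicate 2, log2 differences -1.79 and -2.09), a setting in which calls over all genes fell to 35 and 36 higher and 140 and 146 lower.

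The genes whose pattern over the 4 libraries was nearest to that of Dkc1, by the root mean square distance of log2(FPKM + 1) centred on each gene's mean, were Sirt1 (0.033), Ubn1 (0.034), Atp8b2 (0.036), Map7 (0.056) and Zfx (0.063). Dkc1 stood in for Tert here, which was too low to be ranked, and with 4 libraries in 2 groups any gene with a similar fall lies near it.

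Terf2, which binds double-stranded telomere repeats and holds the end in a protected loop (chr8:107069400-107096547, - strand), fell as well. Its FPKM was 13.5 and 14.9 in 10p-HFSC replicates and 4.51 and 3.08 in 48p-HFSC replicates. Both 10p-HFSC libraries were well above both 48p-HFSC libraries. The means were 14.2 ± 0.968 and 3.80 ± 1.01 (SD, n = 2 each), 3.74-fold lower, with a log2 difference of -1.68 (standard error 0.29, 95% interval -2.39 to -0.96, limma adjusted p = 0.014). The call was lost after rescaling to TPM (log2 difference -2.21, limma adjusted p = 0.067) and without replicate 1 or replicate 2 of 10p-HFSCs (log2 differences -1.74 and -1.61, limma adjusted p = 0.23 for each), with a difference that stayed about as large or larger.

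Terf1, the other protein that binds the double-stranded repeats and restrains telomerase there (chr1:15805646-15844052, + strand), had an FPKM of 22.0 and 20.3 in 10p-HFSCs against 21.02 and 47.8 in 48p-HFSCs. Replicate 1 of 48p-HFSCs lay between the 10p-HFSC libraries and replicate 2 alone was higher. The log2 difference was 0.57 (95% interval -0.44 to 1.58, limma adjusted p = 0.35). It was 1.14 without replicate 1 of 48p-HFSCs (limma adjusted p = 0.026) and -0.01 without replicate 2, so that it rests on the latter library. In TPM, which scales each library to the same sum, Terf1 was at 37.8, 28.2, 31.6 and 33.8 in the order above, a log2 difference of -0.00064.

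Terf2ip, which encodes Rap1 and reaches telomeres through Terf2 (chr8:112011398-112020528, + strand), was at an FPKM of 4.84 and 5.79 at 10 passages and 3.68 and 1.88 at 48 passages. The groups did not overlap, but the difference of -0.78 on the log2 scale did not pass the test (95% interval -1.60 to 0.04, limma adjusted p = 0.15). Gm6793, listed at 475 to 729 FPKM, shares 2.18% of the exonic bases on the opposite strand. Without replicate 1 of 48p-HFSCs the difference was -1.13 (limma adjusted p = 0.033), and without replicate 2 it was -0.43. Terf2, Terf2ip and Acd all lie on chromosome 8, where the median log2 difference of 565 genes was -0.61 and 76.1% of genes were below 0. That chromosome had the lowest median of the 20 examined, and its part in the values of these 3 genes was not tested.

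Tinf2 encodes TIN2, which ties Terf1, Terf2 and Acd together (chr14:55674689-55681820, - strand), and was the only one of the 9 tested genes called higher. Its FPKM was 8.78 and 9.37 in 10p-HFSC replicates and 22.1 and 45.7 in 48p-HFSC replicates. Both 48p-HFSC libraries were above both 10p-HFSC libraries, and they lay far apart from each other. The means were 9.08 ± 0.419 and 33.9 ± 16.7 (SD, n = 2 each), 3.74-fold higher, with a log2 difference of 1.71 (standard error 0.38, 95% interval 0.77 to 2.65, limma adjusted p = 0.030). The call was lost without the filter on low FPKM (limma adjusted p = 0.069), after rescaling to TPM (log2 difference 1.17, limma adjusted p = 0.19), and without replicate 1 or replicate 2 of 10p-HFSCs (log2 differences 1.66 and 1.75, limma adjusted p = 0.32 and 0.27). In TPM, Tinf2 was at 15.1 and 13.0 in 10p-HFSCs against 33.2 and 32.3 in 48p-HFSCs, so that the 48p-HFSC replicates lay close together on that scale.

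Tinf2 shares 31.2% of its exonic bases with Gmpr2 on the opposite strand, and 28.7% of windows of the read length in its longest transcript also occur in Gmpr2 transcripts. Gmpr2 was at 10.1 and 10.4 at 10 passages and 18.6 and 22.1 at 48 passages, a log2 difference of 0.92 (limma adjusted p = 0.053). The library kit keeps the strand, but whether the quantification used it is not given in the sources used here. If it did not, reads of the shared bases could have been assigned to either gene, and the FPKM of Tinf2 is uncertain to that extent. The median log2 difference of 365 genes of chromosome 14 was 0.44.

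Acd encodes TPP1, which recruits telomerase and holds Pot1 to the rest of shelterin (chr8:105695860-105701102, - strand). Its FPKM was 24.9 and 31.7 in 10p-HFSC replicates and 14.3 and 22.1 in 48p-HFSC replicates. All 48p-HFSC values were below the 10p-HFSC values, with a log2 difference of -0.63 that did not pass the test (95% interval -1.39 to 0.13, limma adjusted p = 0.19). It was -0.33 without replicate 1 of 48p-HFSCs and -0.93 without replicate 2. Acd shares 33.3% of its exonic bases with Carmil2 (listed as Rltpr) on the opposite strand, which was at 1.15 and 2.14 in 10p-HFSCs against 0.256 and 0 in 48p-HFSCs, and was called lower.

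Pot1a and Pot1b encode the proteins on the single-stranded overhang, where Pot1a suppresses the DNA damage response and Pot1b limits trimming of the end. Pot1a (chr6:25743737-25809246, - strand) was at an FPKM of 5.77 and 5.32 at 10 passages and 8.52 and 8.80 at 48 passages. Pot1b (chr17:55651951-55712628, - strand) was at 3.34 and 2.36 in 10p-HFSC replicates and 3.04 and 0.953 in 48p-HFSC replicates. Pot1a was higher in both 48p-HFSC libraries, whereas Pot1b overlapped between groups and was low in replicate 2 of 48p-HFSCs alone, where its value corresponds to an estimated 31 fragments. The log2 difference was 0.56 for Pot1a (95% interval -0.08 to 1.2, limma adjusted p = 0.18) and -0.44 for Pot1b (95% interval -1.44 to 0.56, limma adjusted p = 0.46), and that of Pot1b was 0.08 without replicate 2 of 48p-HFSCs and -0.97 without replicate 1 (limma adjusted p = 0.83 and 0.047). The log2 ratio of Pot1b to Pot1a (each with a pseudocount of 1) was -0.64 and -0.91 in 10p-HFSCs against -1.24 and -2.33 in 48p-HFSCs, a difference of -1.0 between groups that do not overlap (exact permutation test, two-sided p = 0.333, the smallest this design allows). That difference was -0.46 without replicate 2 of 48p-HFSCs and -1.55 without replicate 1.

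Rtel1, the helicase that unwinds the protective loop for replication (chr2:181319739-181356616, + strand), was at an FPKM of 7.26 and 8.50 at 10 passages and 7.30 and 7.65 at 48 passages. Both 48p-HFSC values lay within the range of 10p-HFSCs. The log2 difference was -0.06 (95% interval -0.72 to 0.59, limma adjusted p = 0.88), an interval that leaves room for a change of moderate size in either direction.

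**Figure D2:**
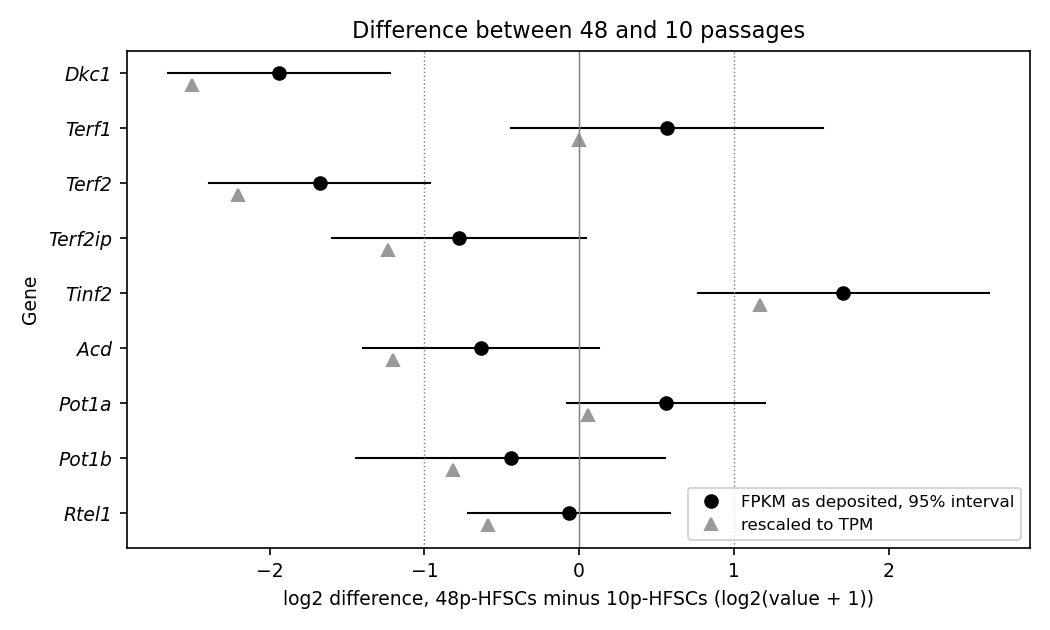
Log2 difference between 48p-HFSCs and 10p-HFSCs for the 9 tested genes, on the log2(FPKM + 1) scale with 95% intervals from limma (circles, 2 libraries a group) and after rescaling to TPM (triangles), with dotted lines at -1 and 1. The intervals of Dkc1, Terf2 and Tinf2 exclude 0, those of the other 6 genes include it, and all TPM values lie further to the left, where the median of all genes also moved.

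Rescaling to TPM moved the median log2 difference of all genes by -0.52, to -0.56, and the calls over all genes from 1189 higher and 1008 lower to 623 higher and 812 lower. Relative to the median of all genes, the TPM differences were -1.94 for Dkc1, -1.65 for Terf2, 1.72 for Tinf2, 0.56 for Terf1 and 0.62 for Pot1a. They were -0.68 for Terf2ip, -0.65 for Acd, -0.26 for Pot1b and -0.03 for Rtel1. On this relative scale all 9 genes had the same sign as in FPKM. That follows largely from the arithmetic and is no separate check. TPM multiplies all genes of a library by the same factor, and centring on the median removes most of its effect. Without that centring, the TPM difference of Pot1a was 0.06 and its groups overlapped, at 9.92 and 7.40 TPM against 12.8 and 6.22. The call of Dkc1 was kept in TPM (log2 difference -2.50, limma adjusted p = 0.013).

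The order of the genes changed between the groups. In 10p-HFSCs, mean FPKM fell from Dkc1 over Acd, Terf1, Terf2, Tinf2, Rtel1, Pot1a, Terf2ip and Pot1b to Tert. Only the neighbours Pot1a and Terf2ip overlapped in their libraries. In 48p-HFSCs the order was Terf1, Tinf2, Acd, Dkc1, Pot1a, Rtel1, Terf2, Terf2ip, Pot1b and Tert. There, Terf1 and Tinf2, Dkc1 and Pot1a, Terf2 and Terf2ip, and Terf2ip and Pot1b were neighbours with overlapping libraries.

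As shares of the summed FPKM of the 7 shelterin genes, a measure in which the scale of a library cancels, the make-up of the transcript pool differed between passages. Tinf2 made up 10.6% and 10.4% in 10p-HFSC replicates and 28.7% and 35.1% in 48p-HFSC replicates. Terf2 made up 16.3% and 16.6%, against 5.85% and 2.37%. Acd made up 29.9% and 35.3%, against 18.5% and 17.0%. Tinf2 thus took a larger share of the pool in both 48p-HFSC libraries, and Terf2 and Acd smaller ones. The shares of a library add up to the whole, so a rise of Tinf2 by itself lowers the shares of the other genes. Acd itself was not called. Terf1 was at 26.4% and 22.6% against 27.2% and 36.7%, and Terf2ip at 5.82% and 6.45% against 4.77% and 1.44%. Pot1a, at 6.94% and 5.93% against 11.0% and 6.75%, and Pot1b, at 4.02% and 2.63% against 3.94% and 0.731%, overlapped between groups.

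**Figure D3:**
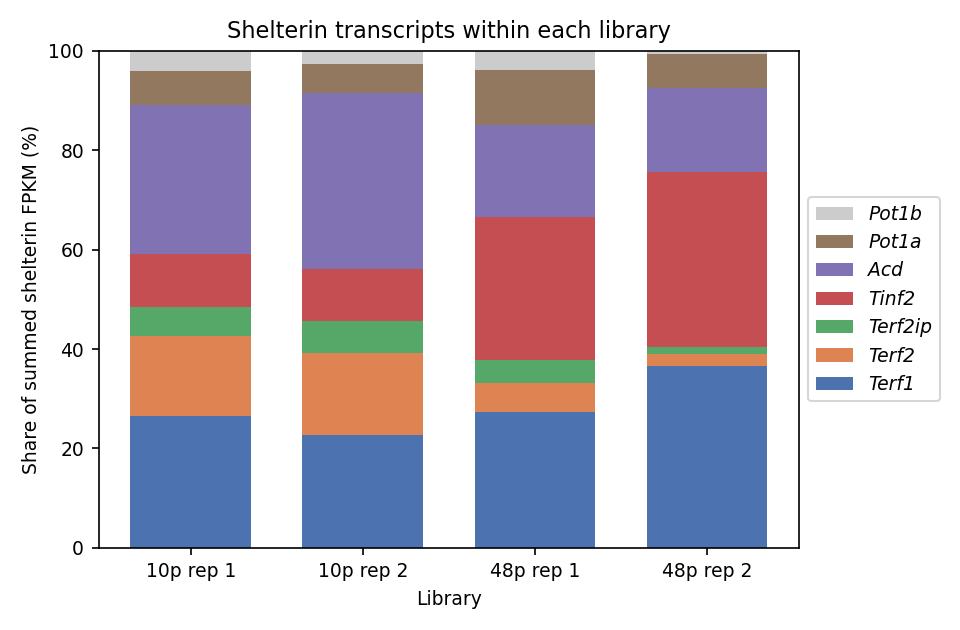
Share of each of the 7 shelterin genes in their summed FPKM (percent, stacked to 100) in each of the 4 libraries. The red band of Tinf2 grows from 10.6% and 10.4% in 10p-HFSCs to 28.7% and 35.1% in 48p-HFSCs, and the orange band of Terf2 shrinks from 16.3% and 16.6% to 5.85% and 2.37%.

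Ratios between genes whose proteins bind each other or act side by side were computed within each library (log2, each gene with a pseudocount of 1). The log2 ratio of Terf2 to Terf1 was -0.66 and -0.42 in 10p-HFSCs against -2.0 and -3.58 in 48p-HFSCs. That of Tinf2 to Terf2 was -0.57 and -0.61, against 2.07 and 3.52, and that of Acd to Tinf2 was 1.40 and 1.66, against -0.60 and -1.02. In 10p-HFSCs Terf2 was above Tinf2 and Acd above both, and in 48p-HFSCs Tinf2 was above both. None of these ratios overlapped between groups, and each exact permutation test gave p = 0.333, the smallest it can give. The ratios hold Tinf2 or Terf2, which were called, and are given as a description. The sum of the 7 genes was 83.1 and 89.7 FPKM at 10 passages and 77.2 and 130.3 at 48 passages, and overlapped between groups. In TPM the sum was 142.9 and 124.8, against 115.9 and 92.1, lower in both 48p-HFSC libraries, so that the direction of the sum depends on the scaling.

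The genes that assemble telomerase, fill in the complementary strand, work with shelterin, process DNA ends or control Tert transcription were examined in 5 lists of 64 genes, of which 58 could be tested, 3 did not pass the filter and 3 were not analysed here. Of the 58, 2 were called higher and 4 lower, 19 had an unadjusted p-value under 0.05, and the median log2 difference was -0.12. Over all 11018 genes, 10.8% were called higher and 9.15% lower, and 4118 had an unadjusted p-value under 0.05. With 1 library left out, which leaves a single library in its group, the counts of calls over all genes changed. The counts in the lists changed too, but not always in step with those. In TPM and without the filter on low FPKM, the counts of the lists were 0 higher and 1 lower.

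Among 11 tested genes of telomerase assembly, 1 was called lower and none higher (9.15% and 10.8% over all genes), with differences from -1.62 to 1.18. The called gene was Ruvbl1 (pontin), an ATPase that works with dyskerin in building the telomerase particle, at an FPKM of 68.9 and 53.4 in 10p-HFSC replicates and 15.1 and 23.9 in 48p-HFSC replicates (log2 difference -1.62, limma adjusted p = 0.020). Its partner ATPase Ruvbl2 was at 75.0 and 64.7, against 44.4 and 68.4, and overlapped between groups (log2 difference -0.33, limma adjusted p = 0.47). Nop10, Nhp2 and Gar1, whose proteins bind RNA together with dyskerin, had log2 differences of 0.55, 1.18 and 0.16 and did not pass (limma adjusted p = 0.46, 0.20 and 0.68). In 48p-HFSCs, Nop10 was at 160.7 and 377.4 and Nhp2 at 181.3 and 565.9, both far higher in replicate 2. The 10p-HFSC values were 138.2 and 204.1 for Nop10 and 116.8 and 169.9 for Nhp2.

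The CST complex and DNA polymerase alpha with primase fill in the strand that telomerase does not make. Among 7 of their genes, 1 was called lower (9.15% over all genes). It was Pola1, the catalytic subunit of the polymerase, at 18.4 and 11.2 in 10p-HFSCs against 4.59 and 4.44 in 48p-HFSCs (log2 difference -1.48, limma adjusted p = 0.028). Among 11 partners and regulators of shelterin, none was called by limma and 5 had an unadjusted p-value under 0.05 (4118 of 11018 over all genes), with differences from -1.64 to 1.11. Among 16 tested genes of DNA ends, helicases and the alternative pathway of telomere lengthening, 1 was called lower (9.15% over all genes). It was Dna2, a nuclease and helicase of end resection, at 4.49 and 4.11 at 10 passages and 1.35 and 1.12 at 48 passages (log2 difference -1.25, limma adjusted p = 0.022). No gene of these 3 lists was called higher, against 10.8% of all genes.

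Among 13 tested genes of transcription factors that act on the Tert promoter, 2 were called higher and 1 lower (10.8% and 9.15% over all genes). Ets1 was at 1.96 and 1.48 in 10p-HFSC replicates and 14.5 and 6.97 in 48p-HFSC replicates (log2 difference 2.04, limma adjusted p = 0.019). Klf4 was at 6.06 and 5.43, against 23.4 and 13.4 (log2 difference 1.48, limma adjusted p = 0.031). Mxd4, whose protein pairs with Max and opposes Myc, was at 23.1 and 16.7, against 9.36 and 5.14 (log2 difference -1.37, limma adjusted p = 0.046). Myc itself, an activator of Tert and Dkc1, was at 67.5 and 69.1 in 10p-HFSCs against 68.0 and 86.0 in 48p-HFSCs (log2 difference 0.16, limma adjusted p = 0.69). Max, the partner of both Myc and Mxd4, was at 22.8 and 22.9, against 11.1 and 11.6 (log2 difference -0.95, limma adjusted p = 0.044), and missed a call by the fold limit alone.

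**Figure D4:**
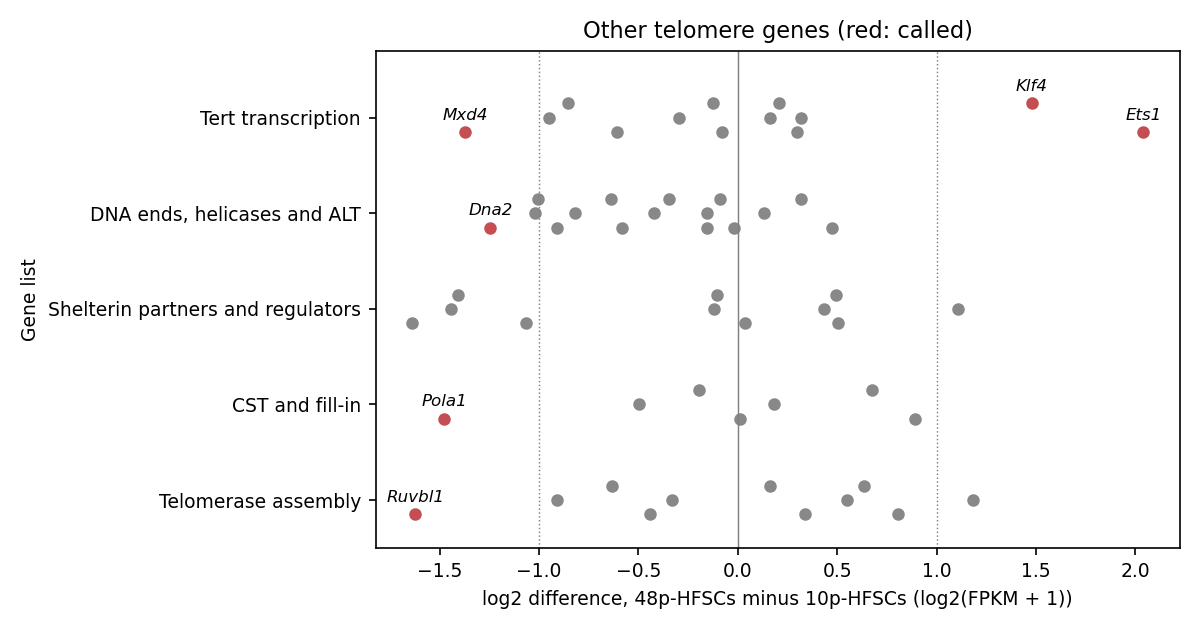
Log2 difference between 48p-HFSCs and 10p-HFSCs (log2(FPKM + 1) scale) of the 58 tested genes in 5 lists, 1 point a gene, with called genes in red and named, spread vertically only for legibility, and dotted lines at -1 and 1. Ets1 and Klf4 lie to the right, Ruvbl1, Pola1, Dna2 and Mxd4 to the left, and grey points beyond the dotted lines did not pass the adjusted p-value.

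Proliferation genes, which move with the share of dividing cells, are set beside these results. Of 10 such genes, 2 were called lower and none higher, against 9.15% and 10.8% of all genes. An unadjusted p-value under 0.05 was seen for 3 (4118 of 11018 over all genes), and the median log2 difference was -0.24. The called genes were Pcna, the sliding clamp of replication, at 223.6 and 172.4 at 10 passages and 95.7 and 77.0 at 48 passages (log2 difference -1.18, limma adjusted p = 0.046), and Mcm2, a subunit of the replicative helicase, at 41.3 and 35.4 against 13.1 and 17.6 (log2 difference -1.28, limma adjusted p = 0.026). The highest differences were 0.99 for Birc5, 0.57 for Cdk1 and 0.54 for Ccna2, and did not pass the test. Birc5 and Ccna2 overlapped between groups and lay above both 10p-HFSC libraries in replicate 2 of 48p-HFSCs alone. The remaining genes were at 0.04 (Aurkb), -0.13 (Ccnb1), -0.35 (Top2a), -0.45 (Bub1) and -0.76 (Mki67), and did not pass either. The part of proliferation in the levels of Dkc1, Pola1 and Dna2 was not tested.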

How the data were processed

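Per the labels, RNA of 2 libraries each of 10p-HFSCs and 48p-HFSCs was made into stranded mRNA libraries. The authors mapped single-end reads to mm10 and deposited 1 FPKM value per gene symbol and library. The submitters' processing notes name TopHat2 2.1.1, Bowtie2 2.2.8, SAMtools 0.1.18 and Cuffdiff 2.2.1. The annotation, strand setting and handling of reads with several positions are not given in the sources used here.

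FPKM values are not counts, so no count test was run. Values were taken to log2 after adding a pseudocount of 1, genes below an FPKM of 1 in all but 1 library or in all were dropped, and passages were compared by limma 3.58.1 (R 4.3.3) with a variance trend and Benjamini-Hochberg adjustment over 11018 genes. The fit was tested on simulated data with independent noise for each gene, which do not cover deviations shared between libraries or a trend with transcript length. Positions came from GENCODE M21 on GRCm38, which is mm10. Fragments were estimated from genes with an FPKM under 0.1 and a single transcript of at least 1500 bases, assuming fragments of 200 bases. Of these values, 72.3% to 77.5% were whole multiples within 0.05, and estimates cover counting over the longest transcript only.

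The 10 genes and the lists were chosen with earlier results of these data known. Named were the 10 genes, every called gene of the lists, the 5 genes nearest in pattern and overlapping neighbours. Terc, Myc, Max, Ruvbl2, Nop10, Nhp2 and Gar1 were singled out after their values were seen. Alternatives were a pseudocount of 0.1, no filter, a filter on mean FPKM, scaling to TPM, by median of ratios or by quantiles, a variance prior without trend, calls with no fold limit, a replicate block, and each library left out. A correction for transcript length and GC content (splines with 4 degrees of freedom) was added after seeing the data. Other computations used Python 3.11, pandas 2.3.3, numpy 2.4.6 and scipy 1.17.1.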

Additional observations from a re-analysis of the deposited data

How the results depend on the processing

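The call of Dkc1 was kept under every alternative but the loss of a 10p-HFSC library. Of the 9 tested genes, 1 was called higher and 2 lower. None was called higher (0) without the filter on low FPKM or in TPM, where 1 was called lower, and 0 to 2 were called higher and 0 to 3 lower when 1 library was left out. For the 5 telomere lists, with 2 higher and 4 lower, the numbers were 0 and 1 without the filter, 0 and 1 in TPM, and 0 to 6 and 0 to 4 when 1 library was left out. Replicate numbers were shared by the groups, which gives 2 pairs of same-numbered libraries. The deviations of such libraries had a correlation of 0.408 over 11018 genes. The labels do not say that replicate numbers mark a shared batch. With the replicate block, 4 list genes were called higher and 10 lower, the adjusted p-values from limma were 0.00010 for Dkc1, 0.00068 for Terf2 and 0.00065 for Tinf2, and calls over all genes rose to 1613 higher and 1497 lower. Without the filter, 816 genes were called higher and 637 lower of 16679. Directions turned only for genes that were not called. Terf1 was at -0.00064 in TPM and from -0.0061 to 1.14 with 1 library left out, Rtel1 at 0.048 with the length and GC correction and from -0.17 to 0.036 with 1 library left out, Pot1b from -0.97 to 0.082 and Tert from -0.65 to 0.079. The cause was not tested. With 1 library left in a group, that library is assumed to vary like the others. The estimated 5 fragments of Tert in replicate 2 of 48p-HFSCs limit what can be said of it.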
